A study of Mus musculus with 8 samples.

Results

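The 10 genes described here, Ptprc, Laptm5, Csf1r, Adgre1, Tyrobp, Fcer1g, Cd68, Lyz2, C1qa and Cd74, are markers of macrophages and of blood cells in general. They were chosen by gene symbol, as a measure of blood cells remaining in cultures of mesenchymal stem cells (MSCs), from 53465 rows of a gene count table. All 10 were found, and all 10 passed the filter on low counts that 14369 genes passed. The libraries came from MSCs of mouse bone, from C57BL/6N mice aged 3 to 5 months. Hypoxia-cultured cells were kept at 2% O2 and normoxia-cultured cells at 21% O2, both with 5% CO2, with 4 samples in each group, numbered 1 to 4. No other treatment or allele separated the groups. The study's methods state that bone fragments and released cells were first grown together under hypoxia, that cells without CD45 and TER-119 protein and with Sca-1 and CD140a protein were then sorted, and that the sorted cells were divided between the oxygen levels. Samples with the same number were therefore treated as pairs. The methods give 7 days of culture at each oxygen level after the sort. The labels instead place the sort on day 12, at the end of the culture at each oxygen level. How long cells grew between sort and lysis is therefore not certain from the labels. Total counts ranged from 12898291 to 13433824 in 7 samples and reached 25132141 in hypoxia sample 1.

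Macrophages are phagocytes that live in almost every tissue, bone included, and they depend on the cytokine CSF1, which stromal cells make and which binds the receptor encoded by Csf1r. CD45, the protein of Ptprc, is a surface phosphatase carried by nearly all white blood cells and is the usual handle for removing them from a sort. Macrophages adhere to culture plastic, as MSCs do. They are known for activating receptors that signal through the small adaptors encoded by Tyrobp and Fcer1g, for lysosomal proteins such as CD68 and lysozyme, and for making the complement component C1q.

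Stretches of the promoters of Laptm5 and Lyz2 are shown because these members had the lowest adjusted p-values and moved in opposite directions. Capitals mark the letters GGAAGT, or ACTTCC on the other strand, the core of sites for ETS factors such as PU.1, which is the product of Spi1 and a regulator of macrophage genes.

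Laptm5, chr4:130913241-130913270, + strand, 30 bases around the match: tgagggcaaggcGGAAGTgaggcaggcagc

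Lyz2, chr10:117282322-117282522, - strand, the 201 bases up to the first annotated exon: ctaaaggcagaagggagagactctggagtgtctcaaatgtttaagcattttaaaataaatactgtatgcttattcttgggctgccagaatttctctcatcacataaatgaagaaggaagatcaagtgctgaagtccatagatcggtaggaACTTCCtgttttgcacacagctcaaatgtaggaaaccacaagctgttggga

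Both sequences are from RefSeq (GRCm38.p6), whose table of promoters spans 250 bases before to 50 after each start. The letters occurred on either strand in 4 of the 5 members listed there (Ptprc, Laptm5, Lyz2 and Cd68) and in 23.8% of all 32851 promoters, so a match describes the sequence and names no bound factor. In the Laptm5 locus the longest annotated transcript starts upstream of the match, which puts the stretch in its first exon, whereas other transcripts start downstream of it.

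The marker genes were detected in every sample, with 140 counts or more for all but Cd74. Together they held 0.0600% to 0.132% of all counts in hypoxia and 0.0703% to 0.137% in normoxia. Their summed level, in CPM, the counts scaled to the same library total in every sample, was 599.5, 840.8, 1317 and 1056 in hypoxia samples 1 to 4. In normoxia samples 1 to 4 it was 702.7, 853.9, 1369 and 1002. The ranges overlapped almost completely and the normoxia mean was 1.03 times the hypoxia mean. Within pairs 1 to 4 the ratio of normoxia to hypoxia was 1.17, 1.02, 1.04 and 0.950.

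This near-equal sum hid opposite movements of its parts. Lyz2 alone supplied 32.1% to 41.4% of the marker counts in hypoxia and 52.3% to 58.2% in normoxia, with no overlap. Without Lyz2 the summed level was 351.1, 512.5, 894.2 and 681.8 CPM in hypoxia samples 1 to 4. In normoxia samples 1 to 4 the remaining 9 genes summed to 294.0, 372.7, 652.9 and 450.4 CPM. Without Lyz2 normoxia was therefore lower in each of the pairs, at 0.837, 0.727, 0.730 and 0.661 times the hypoxia level. In bulk RNA, fewer macrophages and less RNA of a gene in each macrophage cannot be told apart.

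**Figure D1:**
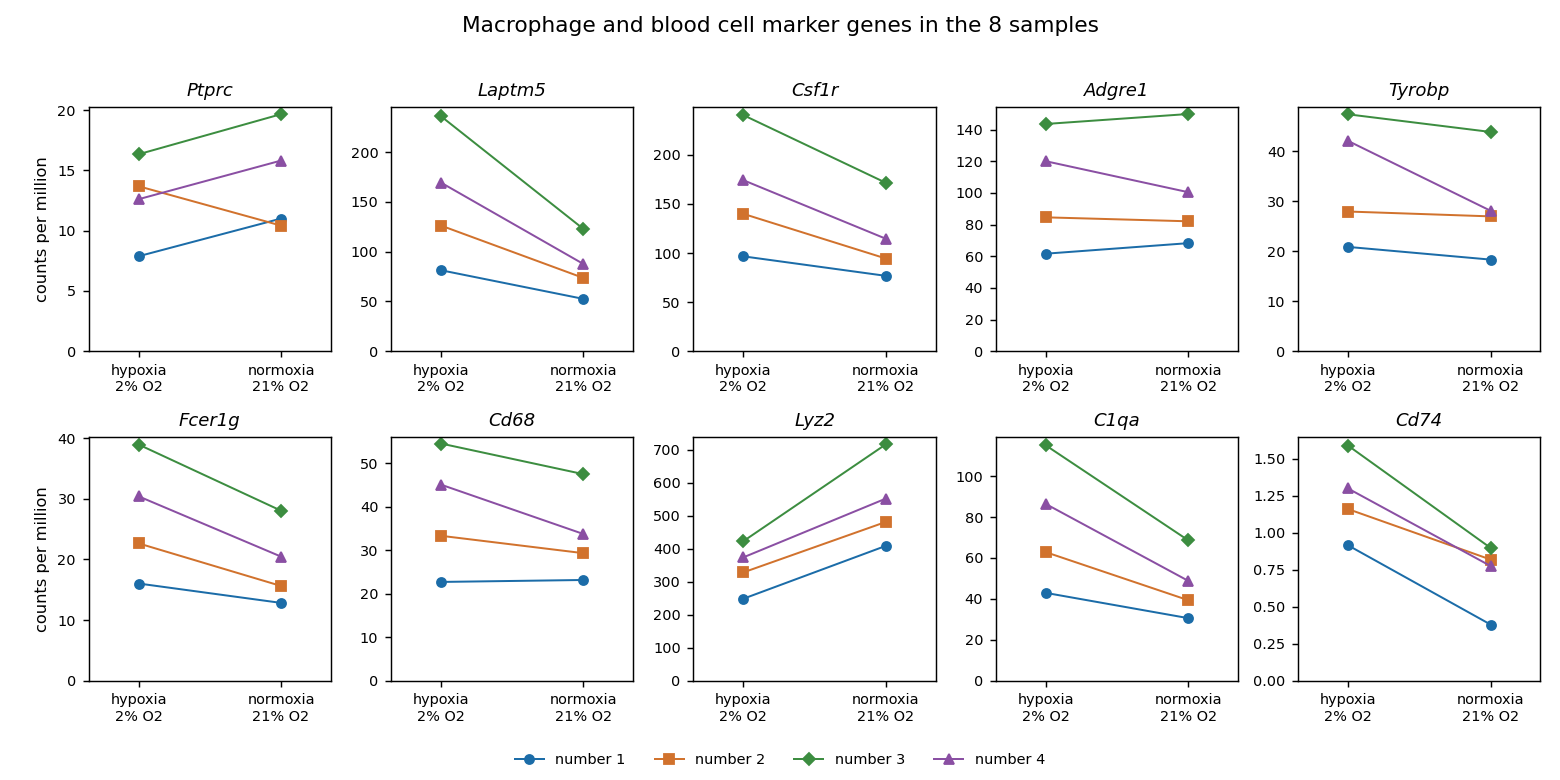
CPM of each marker gene (vertical axes, linear from 0, different for each gene) in hypoxia at 2% O2 and normoxia at 21% O2, with 1 point per sample and lines joining samples of the same number. Sample 3 is highest for all 10 genes in both groups, most lines fall to the right, and those of Lyz2 rise.

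Levels of different genes were compared as CPM per kilobase of the longest transcript. Lyz2, which encodes the lysozyme of myeloid cells, was far above the other markers in both groups, at 260.8 ± 56.3 (SD, n = 4) in hypoxia and 410.0 ± 99.97 in normoxia. In hypoxia it was followed by C1qa at 73.9 ± 29.9, Laptm5 at 58.98 ± 25.3 and Tyrobp at 57.9 ± 20.6, then Fcer1g at 39.6 ± 14.5, Csf1r at 34.7 ± 12.9, Adgre1 at 31.7 ± 11.3 and Cd68 at 31.6 ± 11.3. The ranges of these 7 neighbours overlapped one after another. Ptprc at 2.20 ± 0.616 and Cd74 at 0.880 ± 0.199 lay below them, each without overlap with the gene above.

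In normoxia the order after Lyz2 was Tyrobp (49.1 ± 17.8 CPM per kilobase), C1qa (45.1 ± 15.7), Laptm5 (32.4 ± 11.4), Adgre1 (30.9 ± 11.0), Fcer1g (28.2 ± 9.75), Cd68 (27.2 ± 8.40) and Csf1r (24.3 ± 8.76). Again only Lyz2, Ptprc (2.48 ± 0.759) and Cd74 (0.509 ± 0.164) stood apart from their neighbours in the order. On the same scale Pdgfra, which encodes the CD140a protein used to select the cells, was at 24.8 ± 3.55 in hypoxia and 31.0 ± 3.05 in normoxia. The mean level per length of the macrophage receptor gene Csf1r was thus above that of Pdgfra in hypoxia and below it in normoxia. Counts of Csf1r could include reads of a gene on the opposite strand. Ly6a, which encodes Sca-1, was at 440.2 ± 43.3 and 424.2 ± 51.6 CPM per kilobase.

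For most of the markers the sample number took a larger share of the variance than oxygen did. In both groups sample 3 was the highest for all 10 genes, a pattern that 7.50% of all tested genes showed. Sample 1 was the lowest in both groups for 9 of 10, against 13.7% of tested genes, the exception being Ptprc, lowest in sample 2 of normoxia. In hypoxia the level in sample 3 was 2.49 times that in sample 1 for Csf1r and 2.90 times for Laptm5, and in normoxia 2.23 and 2.34 times. In a layout with oxygen and number, the number accounted for a median of 69.7% of the variance of log2 CPM over the markers and oxygen for 29.6%. Over all tested genes the medians were 31.6% and 38.6%. The number has more levels than oxygen and can take a larger share without a larger effect. The shares of a gene therefore do not rank number against oxygen. Number took 96.1% of the variance of Adgre1 and 87.3% of that of Cd68, while oxygen took 60.2% for Cd74, 49.8% for Lyz2 and 45.8% for Laptm5. Hypoxia sample 1 was also the library with by far the highest depth, and the part of depth in its low values was not tested. Normoxia sample 1 had the depth of the other samples and was the lowest of its group for the same 9 genes.

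**Figure D2:**
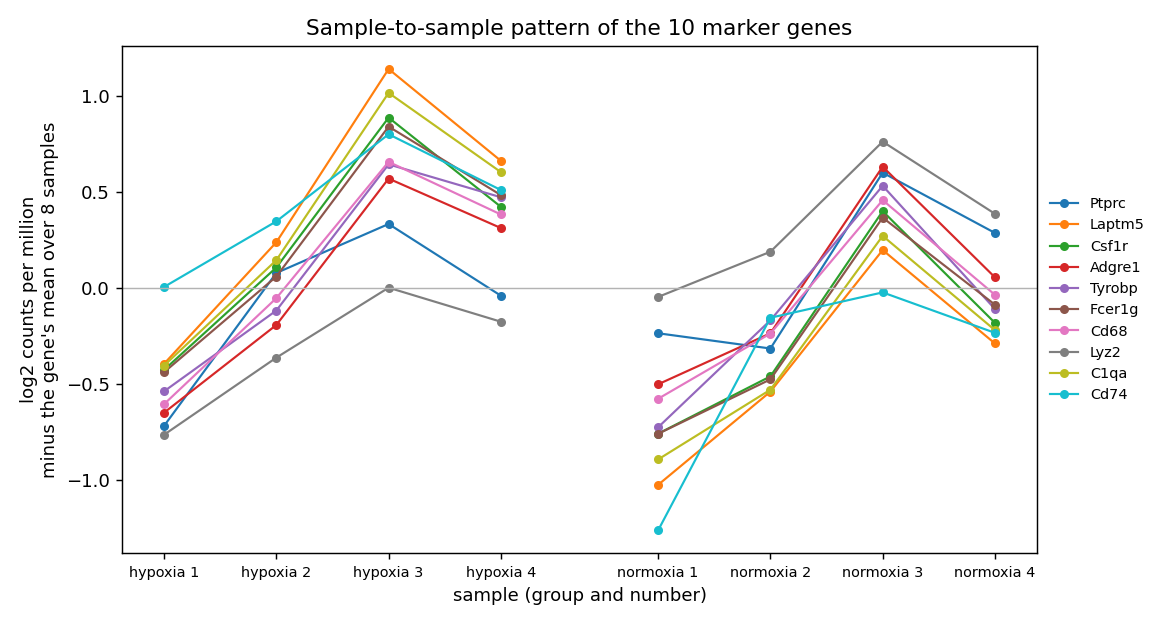
Log2 CPM of the 10 marker genes minus each gene's mean over the 8 samples (vertical axis), by sample (horizontal axis), with the points of a group joined. Sample 3 is the highest point of every line in both groups. Lyz2 lies above the other lines in normoxia and below them in hypoxia.

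Of the 10 markers 4 passed the test between the oxygen levels, limma-trend on log2 CPM with an adjusted p under 0.05. Laptm5, C1qa and Cd74 were lower in normoxia, which is 3 of 10 against 16.5% of all tested genes. Lyz2 was higher, 1 of 10 against 18.0% of all tested genes. With the sample number as a replicate block, 7 of 10 were lower (Laptm5, Csf1r, Tyrobp, Fcer1g, Cd68, C1qa and Cd74), where 22.7% of all genes were, and Lyz2 remained the only one higher, where 23.3% of all genes were. On the TMM-scaled values of the fit, the same 7 genes were lower in every pair, against 26.8% of tested genes, and Lyz2 was higher in every pair, against 27.7%. Ptprc and Adgre1 passed in neither fit. A single member had groups that did not overlap at all, Cd74, which was lower, against 15.5% of tested genes lower and 17.1% higher. Without the block the calls rested on single samples. All 3 lower calls were lost when hypoxia sample 3 or 4 or normoxia sample 1 or 2 was left out, those of C1qa and Cd74 without hypoxia sample 2 or normoxia sample 4, that of Cd74 without normoxia sample 3, and that of Lyz2 without normoxia sample 3 or 4. Without hypoxia sample 1 the lower calls became 5, with Csf1r and Fcer1g added. A correction for GC content and transcript length left Lyz2 alone without the block, and with it 5 lower calls and Lyz2. The median log2 change of the 10 markers was -0.44, beside 0.005 for all tested genes.

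**Figure D3:**
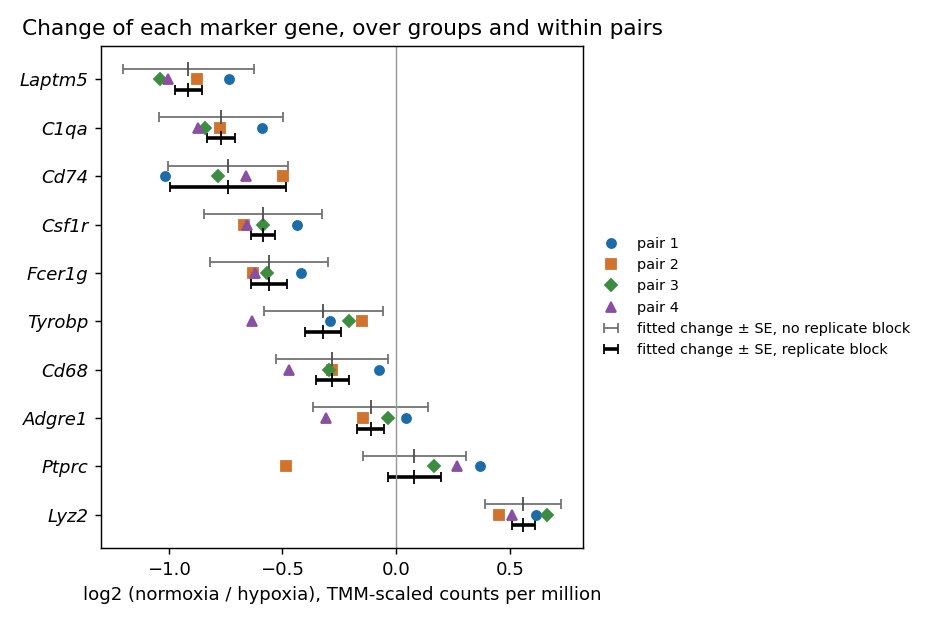
Log2 of normoxia over hypoxia (horizontal axis) for each marker gene, as the fitted change with its standard error without (grey) and with (black) the replicate block, and as the difference within each of the 4 pairs (coloured points). The black bars are shorter than the grey ones for 9 of the genes and about equal for Cd74. Points of 7 genes lie to the left of 0 in all pairs, those of Lyz2 to the right, and those of Ptprc and Adgre1 on both sides.

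Among the genes used by white blood cells in general, Ptprc was the member with the lowest level after Cd74 and showed no call. Its level was 7.88, 13.7, 16.3 and 12.6 CPM in hypoxia samples 1 to 4 and 11.0, 10.4, 19.7 and 15.8 CPM in normoxia, with wide overlap. The fitted log2 change was 0.08 ± 0.23 (SE), with an adjusted p of 0.814, and the pairs disagreed in sign, pair 2 being lower by 0.49 and pairs 1, 3 and 4 higher by 0.17 to 0.37. The sign of this small value turned under several alternatives, without a call under any of them.

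Laptm5 encodes a lysosomal membrane protein of haematopoietic cells. It had the largest difference of the set. Its level was 81.4, 126.3, 236.2 and 169.5 CPM in hypoxia samples 1 to 4 and 52.6, 73.6, 122.8 and 87.6 CPM in normoxia. The groups overlapped, because sample 3 of normoxia lay above sample 1 of hypoxia, yet within each pair normoxia was lower. Its log2 change was -0.91 ± 0.29, with an adjusted p of 0.0278, so that normoxia stood at 53.1% of hypoxia. After the GC and length correction the adjusted p was 0.0527 without the block. The differences within pairs ranged only from -1.04 to -0.73. The gene lies on chromosome 4 at 130913125 to 130936141, + strand (GRCm38).

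Csf1r, the receptor for CSF1 and interleukin 34 that macrophages need to survive, was at 96.7, 140.0, 240.6 and 174.3 CPM in hypoxia samples 1 to 4. In normoxia it was at 76.8, 94.5, 171.6 and 114.6 CPM. Every pair was lower in normoxia, by 0.44 to 0.67 on the log2 scale, while the groups overlapped. The log2 change of -0.59 ± 0.26 had an adjusted p of 0.0998 without the block and 6.71e-09 with it. Csf1r overlaps Hmgxb3, a gene on the opposite strand, and whether the counting used strand is not stated, so reads of the other gene could be included.

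Adgre1, which encodes the F4/80 antigen of mouse macrophages, differed from Csf1r in this respect. It was at 61.6, 84.6, 143.6 and 120.1 CPM in hypoxia and 68.3, 82.1, 149.9 and 100.5 CPM in normoxia. Samples of the same number were almost level, except in pair 4. The log2 change was -0.11 ± 0.25, with an adjusted p of 0.771, and 0.132 with the block. With log2 CPM also corrected for GC content and transcript length, the blocked change was -0.20 with an adjusted p of 0.00318.

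The adaptors lay between these cases. Tyrobp, the adaptor DAP12, ranged from 20.9 to 47.4 CPM in hypoxia with a median of 34.98, and from 18.3 to 43.8 CPM in normoxia with a median of 27.5. It was lower in each pair, by 0.15 to 0.63, and passed with the block and not without it (log2 change -0.32, adjusted p 0.00198 and 0.380). Corrected for GC content and transcript length, the blocked change of Tyrobp was -0.09 with an adjusted p of 0.340. Fcer1g, the common gamma chain of Fc receptors, was at 16.0, 22.7, 38.96 and 30.4 CPM in hypoxia and 12.8, 15.6, 28.0 and 20.5 CPM in normoxia. Its log2 change of -0.56 ± 0.26 was close to that of Csf1r and likewise passed with the block and not without it over all 8 samples (adjusted p 3.97e-06 and 0.117). Without the block, both genes passed when hypoxia sample 1, normoxia sample 3 or pair 1 was left out.

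Of the lysosomal markers, Cd68, a glycoprotein of macrophage lysosomes, was at 22.7, 33.3, 54.5 and 45.1 CPM in hypoxia and 23.2, 29.3, 47.5 and 33.7 CPM in normoxia. In pair 1 the CPM were nearly equal and slightly higher in normoxia, and only the TMM-scaled value was lower, by 0.07. The log2 change was -0.28 ± 0.25 and passed with the block and not without it (adjusted p 0.00276 and 0.412). Corrected for GC content and transcript length, the blocked change of Cd68 was -0.15 with an adjusted p of 0.0763.

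Lyz2 was the only marker that passed as higher in normoxia. It was at 248.4, 328.2, 422.6 and 373.7 CPM in hypoxia samples 1 to 4 and at 408.7, 481.2, 716.3 and 551.9 CPM in normoxia. The single overlap came from sample 3 of hypoxia, which exceeded sample 1 of normoxia. The log2 change was 0.56 ± 0.17, with an adjusted p of 0.0220 and a level in normoxia of 147.4% of hypoxia, and the pairs ranged from 0.45 to 0.66. The gene lies on chromosome 10 at 117277331 to 117282321, - strand, beside its near-identical paralogue Lyz1, which had at most 12 counts in any sample and between which reads could be split.

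C1qa encodes the A chain of the complement component C1q. It was at 42.97, 62.9, 115.1 and 86.4 CPM in hypoxia samples 1 to 4. In normoxia it was at 30.6, 39.4, 68.7 and 48.8 CPM, lower in each pair by 0.59 to 0.87 on the log2 scale although the groups overlapped. The log2 change was -0.77 ± 0.27, with an adjusted p of 0.0464. Without the block the call was lost under DESeq2, limma-voom, library size only, no filter and the GC and length correction (adjusted p 0.0832, 0.0618, 0.0752, 0.0570 and 0.170), the last with a change of -0.50. The gene lies on chromosome 4 at 136895917 to 136898803, - strand. The other chains, C1qb and C1qc, are not among the 10 and moved the same way, with log2 changes of -0.44 and -0.63 that passed with the block and not without it (adjusted p 0.239 and 0.0976 without, 9.71e-07 and 1.66e-08 with it).

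Cd74, the invariant chain of MHC class II molecules, was close to the limit of detection. It had 23, 15, 21 and 17 counts in hypoxia samples 1 to 4 and 5, 11, 12 and 10 counts in normoxia. As CPM this was 0.915, 1.16, 1.59 and 1.30 against 0.380, 0.819, 0.897 and 0.775, so all 4 normoxia samples lay below the lowest hypoxia sample. The log2 change was -0.74 ± 0.26, with an adjusted p of 0.0472, and it did not pass under edgeR, DESeq2 or limma-voom without the block. Among the fits with the block it did not pass with DESeq2, without pair 1, without pair 3 or after the GC and length correction (adjusted p 0.124, 0.0782, 0.0673 and 0.0963). A count of 3, taken as the smallest that shows detection, corresponded to 0.119 CPM in hypoxia sample 1 and 0.223 to 0.233 CPM in the other samples.

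With so much of the spread shared between genes within a sample, each marker was also expressed relative to Csf1r in the same sample, a ratio that does not depend on depth. The ratio shows unequal change between genes and does not say which of the pair moved. Fcer1g stayed at 0.162 to 0.175 counts per count of Csf1r in hypoxia and 0.163 to 0.179 in normoxia, a range far narrower than the change in either gene's level. Tyrobp and Cd74 also overlapped between the groups.

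For 6 of the 9 genes the ratios did not overlap between the groups. Lyz2 was at 2.57, 2.34, 1.76 and 2.14 counts per count of Csf1r in hypoxia samples 1 to 4 and at 5.32, 5.09, 4.17 and 4.82 in normoxia, so the ratio was 2.07 to 2.38 times as high within pairs. Adgre1 was at 0.597 to 0.689 in hypoxia and at 0.869 to 0.889 in normoxia. Cd68 (0.227 to 0.259 against 0.277 to 0.311) and Ptprc (0.0679 to 0.0978 against 0.110 to 0.143) were higher as well. Laptm5 (0.842 to 0.982 against 0.684 to 0.779) and C1qa (0.444 to 0.496 against 0.399 to 0.426) were lower. These were 4 of 9 markers higher, against 3.72% of all tested genes, and 2 of 9 lower, against 0.202%. The highest Csf1r level was about 2.5 times the lowest in hypoxia and 2.2 times in normoxia. Ratios of genes without this sample pattern therefore overlap readily, so these shares are not a like comparison for markers that share it. The ratios use counts without the correction for GC content and transcript length. With that correction and the block, the log2 change was -0.502 for Csf1r and -0.495 for C1qa. The corrected change of C1qa was thus not lower than that of Csf1r. It was -0.771 for Laptm5, -0.154 for Ptprc, -0.146 for Cd68, -0.197 for Adgre1 and 0.575 for Lyz2. All 9 ratios share the count of Csf1r, which could include reads of Hmgxb3. In counts 6 of the 9 did not overlap, and whether the markers moved by a common factor was not tested.

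**Figure D4:**
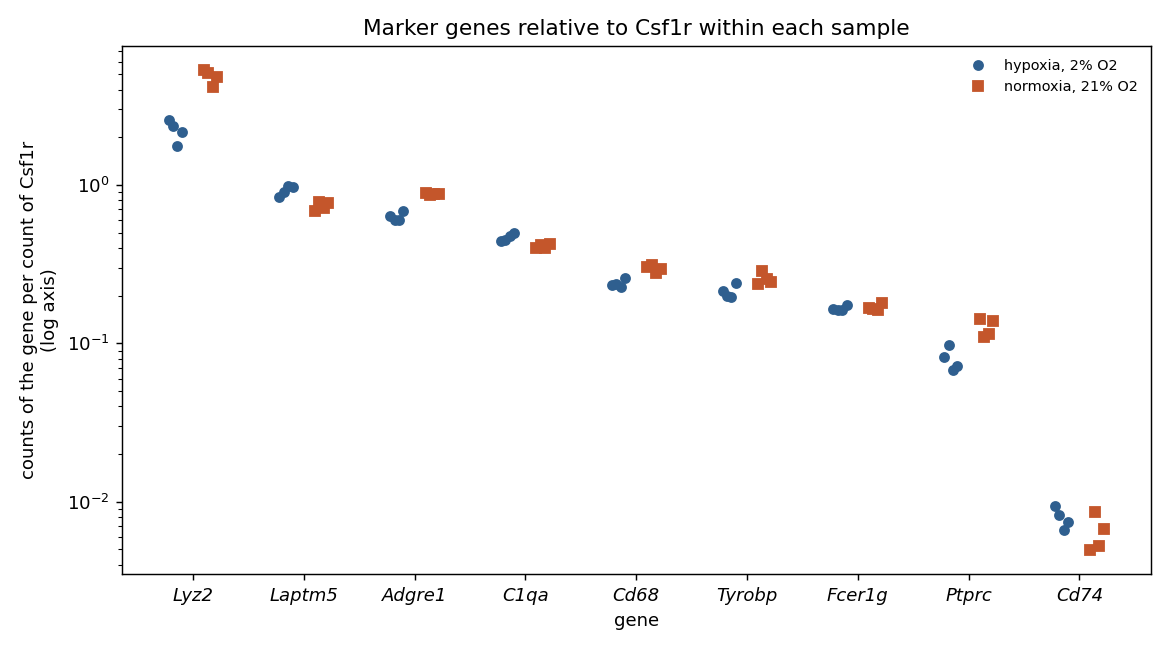
Counts of each marker gene per count of Csf1r in the same sample (vertical axis, log scale), 4 hypoxia samples (blue circles) and 4 normoxia samples (orange squares) per gene. Fcer1g is at the same height in both groups, Lyz2, Adgre1, Cd68 and Ptprc are higher in normoxia, and Laptm5 and C1qa lower.

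The counts for the following lists stand beside 16.5% lower and 18.0% higher among all tested genes without the block, and 22.7% and 23.3% with it. Of 18 pan-leukocyte genes, all tested, 2 were lower in normoxia and none higher without the block (Spn, the sialophorin CD43, with a log2 change of -0.94, and Cd52 with -0.58), and 10 were lower and none higher with it. The 2 lower calls are a smaller share than that of all tested genes. The median log2 change was -0.38, and 15 of the 18 were highest in sample 3 of both groups. The most counted were Lcp1 (L-plastin, 64.7 to 147.6 CPM in hypoxia and 63.2 to 151.8 in normoxia), Itgb2 (the beta-2 integrin, 22.6 to 43.8 and 24.8 to 57.0) and Arhgdib (30.1 to 36.6 and 33.4 to 43.9).

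Of 33 further macrophage and monocyte genes, 29 were tested, and 2 lower and 1 higher without the block were smaller shares than among all tested genes. Mrc1, the mannose receptor, and Fcgr2b, the inhibitory Fc receptor, were lower in normoxia, with log2 changes of -0.84 and -0.88, and Gpnmb was higher. With the block 14 were lower and 3 higher (the other two being Msr1, a scavenger receptor, and Ms4a7, chosen here after their values were seen), and the median was -0.33. Gpnmb, a glycoprotein of lysosomes and melanosomes, was at 11.0, 10.6, 12.3 and 14.8 CPM in hypoxia and 33.3, 24.2, 33.1 and 29.8 CPM in normoxia, without overlap (log2 change 1.21 ± 0.12, adjusted p 7.72e-05). Sample number took 5.19% of the variance of Gpnmb, against a median of 71.0% for the list. Gpnmb thus did not share the sample pattern of the markers, and which cells made its RNA was not tested. Lgmn, a lysosomal protease also made by other cells, and Mpeg1, a pore-forming protein of macrophages, were the most counted of the list and passed in neither fit. Timd4 and Vsig4, which mark some resident macrophages, had at most 3 counts in any sample, and the monocyte gene Ly6c2 was not tested either. Ccr2, Cx3cr1, Cd163 and Marco of the same list were tested, named after their values were seen. Ccr2 had 10, 13, 32 and 20 counts in hypoxia samples 1 to 4 and 0, 0, 13 and 8 in normoxia. Its log2 change of -1.64 passed only with the block (adjusted p 0.051 without and 0.000152 with it).

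None of the 15 tested genes of ITAM adaptor signalling, the pathway downstream of Tyrobp and Fcer1g, passed without the block, and with it Card9 was lower and Clec4e higher, both named after their values were seen. Their median was 0.02. Sirpa, Lyn and Syk were the most counted. Syk, the kinase recruited by these adaptors, was at 11.8 to 18.1 CPM in hypoxia and 14.5 to 19.3 in normoxia.

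Among ligands and partners of the CSF1 receptor, Csf1 itself was abundant, at 1969, 1672, 1608 and 1578 CPM in hypoxia and 2206, 2167, 2102 and 2031 CPM in normoxia. These groups did not overlap in CPM, and the log2 change of 0.23 ± 0.09 passed only with the block (adjusted p 0.0531 without and 0.00113 with it). The ligand gene Il34 was at 14.9 to 26.1 and 15.7 to 24.6 CPM. Of 7 tested genes of this list, Csf2ra and Cbl were lower (log2 changes -0.38 and -0.24) and Grb2 higher (0.16). With the block 3 were lower and 2 higher, Csf1 and Pik3r1 being added. Pik3r1 was at 132.5 to 194.8 CPM over all samples, with a log2 change of -0.22 and an adjusted p of 0.0957 without the block and 0.00200 with it.

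Of 10 tested complement genes other than C1q, C4b (log2 change -1.04) and Serping1, the C1 inhibitor (-0.69), were lower in normoxia, and with the block C5ar1 was lower as well and C1s1 higher, both named after their values were seen. C1ra, a protease partner of C1q, was at 114.2 to 168.5 CPM over all samples. Most genes of this list are also made by stromal cells, and only 2 of the 10, C3ar1 and C5ar1, were highest in sample 3 of both groups as the markers were.

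Of 18 genes of MHC class II and antigen presentation, 10 were tested, with a median of -0.08. H2-Ab1, a class II chain, was lower (log2 change -0.45) and Cd80, a costimulatory ligand, higher (0.75), and with the block H2-DMb1 was lower as well (-0.32, adjusted p 0.142 without and 0.0446 with it), named after its values were seen. H2-Aa and the class II activator Ciita did not exceed 5 counts in any sample, and H2-Oa was at 0 in all of them. Ctss, the protease that trims the invariant chain, was at 24.9 to 48.3 CPM in hypoxia and 27.8 to 52.5 in normoxia.

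Of the osteoclast genes 7 of 12 were tested. Acp5, the tartrate-resistant acid phosphatase, and Itgb3 were lower in normoxia (log2 changes -1.10 and -0.70) and Ctsk, cathepsin K, was higher (0.46), which left Nfatc1 at 35.7 to 44.2 CPM over all samples and Tnfrsf11a at 5.29 to 12.6. Calcr, which marks mature osteoclasts, was at 0 in every sample, and Acp5 did not exceed 1.70 CPM. Sample number took 2.11% of the variance of Ctsk, against a median of 60.6% for the list. Which cells made the Ctsk RNA was not tested.

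Genes of other blood lineages were mostly not detected, where a count of 0 allows a level of up to 0.119 CPM in hypoxia sample 1 and 0.223 to 0.233 CPM in the others. Of 17 neutrophil genes 11 had at most 3 counts in any sample and 8 had 0 throughout, S100a9 and Elane among them. The one tested was Lcn2, at 4.99 to 8.79 CPM, and Camp and Prtn3 stayed under 1 CPM. Of 24 genes of T, B and NK cells 13 were at 0 in every sample, among them Cd3e and Ms4a1. The list's sum was almost entirely Ebf1, at 76.9 to 113.5 CPM, a factor of B cells that stromal cells also express. Gzmb, granzyme B, was higher in normoxia (log2 change 1.43) at no more than 1.42 CPM, and Lck stayed under 0.5 CPM. Globin genes were at 0 in all samples, and the erythroid genes Rhag and Epor stayed under 1 CPM.

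Among 10 megakaryocyte and platelet genes, Ppbp was the most counted at 3.40 to 24.9 CPM, Pf4, a chemokine that macrophages can also express, was at 4.41 to 19.1, Itga2b was at 3.37 to 4.92, and Gp1bb was lower in normoxia (log2 change -0.74). With the block Ppbp was higher (1.05, adjusted p 0.0867 without and 1.53e-05 with it) and Pf4 lower (-0.57, adjusted p 0.238 and 0.000129). Among 13 genes of mast cells, basophils and progenitors, Cd34, also a stromal gene, fell from 36.7 to 58.0 CPM in hypoxia to 16.0 to 24.3 in normoxia (log2 change -1.25), and Mcpt8 was higher (1.41) at 3.19 CPM or less. Gata2 was at 10.7 to 19.5 CPM. The mast cell genes Cpa3, Ms4a2 and Fcer1a were at 0. Of 12 endothelial genes 5 were at 0 in all samples, the most counted were Egfl7, Erg and Tek, each under 2.5 CPM, and none of the 4 tested passed with or without the block.

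The labelled cell type was visible at much higher levels. The 18 mesenchymal stem cell genes summed to 103500 to 111400 CPM in hypoxia and 82390 to 89590 in normoxia, led by Col1a1, Col1a2 and Sparc. Of these 18, 2 were lower in normoxia, Col1a1 (log2 change -0.74) and Eng (-0.27), and 4 were higher, Alcam (0.78), Cd44 (0.72), Nt5e (0.59) and Itgb1 (0.44). With the block 7 were lower and 7 higher, Col1a2 and Ly6a being lower and Pdgfra higher among those added. None of the 18 was highest in sample 3 of both groups.

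**Figure D5:**
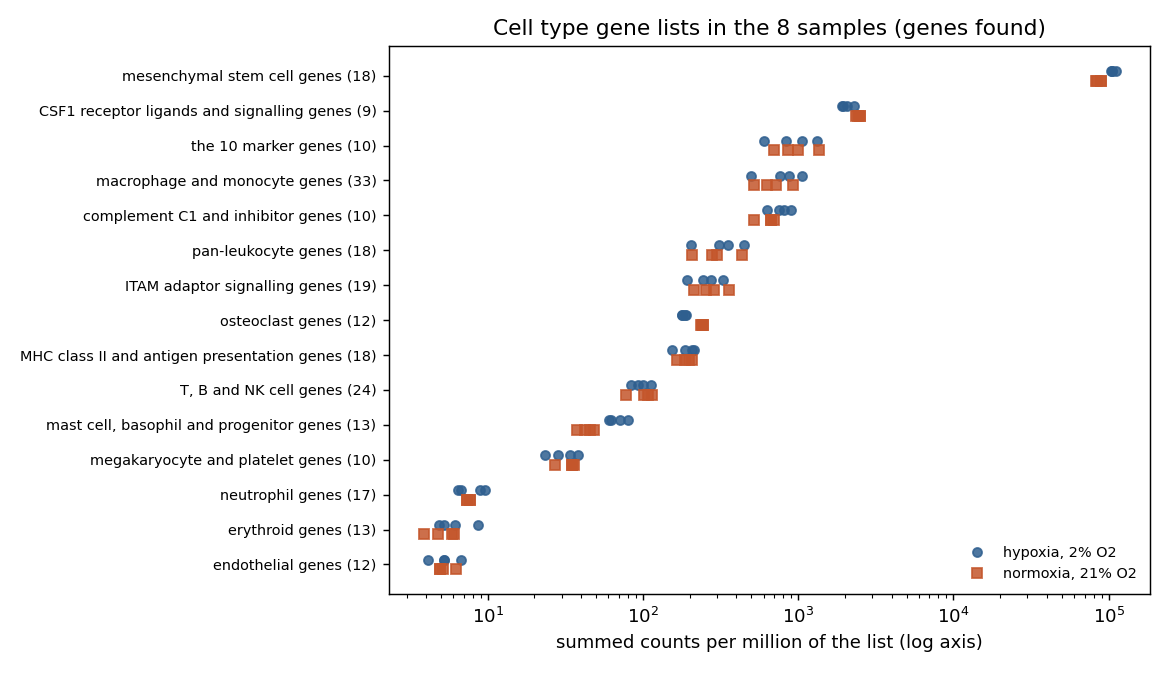
Summed CPM of each gene list (horizontal axis, log scale) in the 4 hypoxia samples (blue circles) and the 4 normoxia samples (orange squares), with the number of genes found in brackets. The 10 markers and the macrophage list lie near 1000 CPM, whereas the neutrophil, erythroid and endothelial lists stay below 10 CPM in every sample.

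The genes whose levels followed the summed marker level most closely, over 11105 genes with a mean count of at least 50, were again mostly of the myeloid lineage or of white blood cells. By Pearson r of log2 CPM over the 8 samples, these were Cd300ld5 (r = 0.996), Pik3ap1 (0.991), Cd300lb (0.987), Pirb (0.987), Lpxn, Vav1, Cd72, Plek, Trem2 and Cadm1 (0.976). Cd300lb and Pirb are receptors of myeloid cells, Vav1 and Plek are signalling proteins of blood cells, and Trem2 is a receptor that uses the Tyrobp adaptor. Of the 46 listed genes among the 11105, members left out, 24 were in the first 100. Samples of the same number were taken to share a sorted population, so the 8 points may not be independent. These values describe the samples and carry no p-value.

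When Lyz2 was left out of the sum, a choice made after its values were seen, the closest genes were C5ar1 (r = 0.995), C1qb (0.995), Pf4 (0.995), Ucp2 (0.991), Inpp5d, Rbm47, Cd53, C1qc, Fermt3 and Dok2.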

How the data were processed

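The authors prepared NEBNext Ultra II libraries, sequenced single-end reads, aligned them to mm10 with STAR through zUMIs and assigned them to Ensembl genes with featureCounts (the use of strand is not given in the sources used here), and deposited raw counts per gene and sample. Positions and transcript lengths were taken from the GENCODE annotation of the same build, GRCm38, in which 53360 of 53465 identifiers had a symbol.

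Groups followed the labelled oxygen level. As in the study's methods, genes were filtered with filterByExpr at a minimum count of 5 and fitted with limma-trend (limma 3.58.1, edgeR 4.0.16, R 4.3.3). TMM scaling and a prior count of 3 in the log2 CPM were choices made here. P-values were Benjamini-Hochberg adjusted over all 14369 tested genes at a threshold of 0.05. SE are those of the fit and SD those between samples. CPM without further comment use total counts, whereas log2 changes and differences within pairs use the TMM-scaled values. Fits were tested on simulated data first. The floor of 3 counts covers counting error only. The study calls the samples of a group biologically independent, but the labels name no animals or cultures, so p-values measure the spread between these samples, which may in part be technical.

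The study describes dividing a sorted population between the oxygen levels. The deviations of same-numbered samples from their group means correlated at 0.47, 0.28, 0.25 and 0.17 for numbers 1 to 4, and the numbers were taken as pairs. The fit with this replicate block was an alternative to the study's unblocked fit and is given where it changed the call of a marker gene and in the counts of the lists. Other alternatives used edgeR, DESeq2 1.42.0 and limma-voom, other scalings, filters and prior counts, samples left out, and a correction for GC content and length with splines of 5 degrees of freedom.

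The marker genes, the other lists and the tests were chosen with earlier results of these data known. From each other list the 3 most counted genes were named, and up to 4 genes that passed with and without the block, by size of change. The 10 genes with the highest r to the summed marker level were named as well. Some listed genes are not reported here.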

Additional observations from a re-analysis of the deposited data

Results flagged for a closer look

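In 4 of 52 sets of 4 samples, 1 sample lay far from the other three by Dixon's criterion, where chance alone gives about 2.6 (1 in 20). Hypoxia sample 1 held 25132141 counts in total, where its group otherwise ranged from 12929564 to 13219647, which makes the gap 0.976 of the group's range. In normoxia sample 1 the complement list summed to 516.1 CPM against 671.5 to 693.9 in the other normoxia samples (0.874 of the range). The megakaryocyte and platelet list summed to 27.3 CPM in normoxia sample 2 against 34.7 to 35.9 (0.869). The endothelial list summed to 6.23 CPM in normoxia sample 1 against 4.91 to 5.12 (0.845). No marker gene, and not the summed marker level, stood apart in this way in either group. Causes were not tested.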

How the results depend on the processing

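Of the 10 markers 4 were called without a block and 8 with the replicate block, and 8, 8, 7 and 8 with the block and pair 1, 2, 3 or 4 left out, 8 with edgeR and the block, 7 with DESeq2 and the block, and 6 when GC content and length were corrected as well (the fits without a pair, and those of edgeR and DESeq2 with the block, were added after seeing the data). Without a block it was 2 with DESeq2, limma-voom, library size only or no filter, 1 after correcting GC content and length, 0 at a threshold of 0.01, and 1 to 6 with single samples left out. Of the other listed genes 26 were called, against 65 with the block, 63, 62, 55 and 62 with the block and pair 1, 2, 3 or 4 left out, 64 and 55 with the block in edgeR and DESeq2, 69 with that correction beside the block, 40 without both samples numbered 1, 16 with no filter, 14 at a threshold of 0.01, and 17 to 46 with single samples left out. The log2 ratio of the summed marker level, 0.04, was -0.36 as a mean of log2 CPM, -0.46 without Lyz2, and -0.16 to 0.24 with single samples left out. Log2 changes turned sign for Ptprc (-0.023 without pair 1, with or without the block, -0.15 with the correction, with or without the block, and -0.12 to 0.22 with single samples left out) and Adgre1 (-0.33 to 0.075 with single samples left out), and for no other marker in the alternatives run. The change of Laptm5 ranged from -1.17 to -0.67, that of Lyz2 from 0.41 to 0.67 and that of C1qa from -1.01 to -0.50. Over all genes 52.2% of the calls were higher in normoxia, against 69.6% with library size only, which moved the median log2 change from 0.005 to 0.089. For Cd74, with 5 to 23 counts, depth limits the precision. The causes of these shifts were not tested, and the fits without a sample assume that the remaining samples vary alike.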
